A study of Homo sapiens with 6 samples.

Results

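The DNA methylation and Polycomb enzymes are 10 genes that write, copy or remove methyl groups on cytosine or build the catalytic core of Polycomb repressive complex 2 (PRC2). The rule that chose them uses names and no measured value, although it was set with earlier results of these data known. They are DNMT1, DNMT3A, DNMT3B, UHRF1, TET1, TET2, TET3, EZH2, SUZ12 and EED. They are 10 of the 24462 gene symbols in the bulk RNA-seq data, and each is counted under a single entry. The study follows the early steps of colorectal cancer after loss of APC, the scaffold protein of the β-catenin destruction complex. Its bulk RNA-seq data hold 3 libraries of 1CT and 3 libraries of 1CT-A. 1CT is an immortalized human colon epithelial cell line of the HCEC series, labelled as colonic epithelial progenitor cells of WT genotype. 1CT-A is its version depleted of wild type APC, labelled APC KD, and is an established derived line. There is thus 1 line of each kind, so the depletion cannot be told apart from other differences that arose between the lines. Cells of both lines are untreated and share a DMEM and M199 medium with EGF, hydrocortisone, insulin, sodium selenite, transferrin and FBS. The labels give replicate numbers but do not say whether the replicates are separate cultures, so every p-value measures the spread between these libraries, which may be technical.

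The 10 enzymes fall into 4 roles. DNMT1 copies cytosine methylation onto the new DNA strand after replication, and UHRF1 brings it to hemimethylated CpG sites, so both serve maintenance. DNMT3A and DNMT3B methylate CpG sites that carried no methyl group on either strand, which is called de novo methylation. TET1, TET2 and TET3 oxidize methylcytosine as the opening step of demethylation. EZH2 is the methyltransferase of PRC2, which puts the repressive mark H3K27me3 on histone H3, and it works only in a complex with SUZ12 and EED. In colorectal cancer both systems are known for silencing at CpG islands, and many promoters that gain DNA methylation in the tumor were Polycomb targets in the normal epithelium.

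The promoter windows of 4 of the enzymes are shown because they hold a word of the E2F motif, the binding sequence of the factors that drive S phase genes. Each runs from 250 bases before to 50 bases after an annotated start, reads 5′ to 3′ on the strand of the gene and comes from RefSeq on GRCh38.p14. The authors' counts rest on hg19 per the submitters' processing notes, so these positions describe the annotation and not the counting. Capitals mark a match to TTTCCCGC, TTTCGCGC, TTTGCCGC or TTTGGCGC on either strand.
DNMT1 chr19:10194904-10195203, minus strand: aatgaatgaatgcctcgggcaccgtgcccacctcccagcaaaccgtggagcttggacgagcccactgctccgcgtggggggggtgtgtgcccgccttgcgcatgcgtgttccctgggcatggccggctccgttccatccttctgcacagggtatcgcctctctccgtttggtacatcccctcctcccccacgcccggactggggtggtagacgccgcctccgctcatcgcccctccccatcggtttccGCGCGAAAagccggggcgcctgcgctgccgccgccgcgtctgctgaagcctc
UHRF1 chr19:4909251-4909550, plus strand: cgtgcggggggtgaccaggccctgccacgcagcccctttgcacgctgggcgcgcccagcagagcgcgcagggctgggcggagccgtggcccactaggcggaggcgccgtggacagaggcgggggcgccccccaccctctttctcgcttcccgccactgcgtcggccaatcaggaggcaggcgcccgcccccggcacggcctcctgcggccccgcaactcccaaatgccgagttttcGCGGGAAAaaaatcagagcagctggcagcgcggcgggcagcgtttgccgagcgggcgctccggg
EZH2 chr7:148884242-148884541, minus strand: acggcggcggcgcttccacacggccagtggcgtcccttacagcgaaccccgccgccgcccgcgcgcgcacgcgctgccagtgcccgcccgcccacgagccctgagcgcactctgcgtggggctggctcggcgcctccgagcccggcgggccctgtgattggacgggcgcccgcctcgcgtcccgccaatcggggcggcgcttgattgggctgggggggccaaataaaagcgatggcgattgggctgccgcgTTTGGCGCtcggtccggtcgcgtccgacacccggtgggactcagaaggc
SUZ12 chr17:31936757-31937056, plus strand: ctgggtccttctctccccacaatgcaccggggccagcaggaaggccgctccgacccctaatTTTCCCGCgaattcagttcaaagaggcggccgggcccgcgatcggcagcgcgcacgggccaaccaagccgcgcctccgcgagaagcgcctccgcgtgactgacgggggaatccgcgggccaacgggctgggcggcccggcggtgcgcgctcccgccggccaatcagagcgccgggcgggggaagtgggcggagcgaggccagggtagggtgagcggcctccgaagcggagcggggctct

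In DNMT1 the word TTTCGCGC is on the opposite strand with its left end at position -2, where the start is +1. In UHRF1, TTTCCCGC is on the opposite strand at -14, and in EZH2, TTTGGCGC is on the strand of the gene at +2. In SUZ12, TTTCCCGC is at -189. Over all 22 annotated windows of the 10 enzymes, 5 windows of these 4 genes hold an E2F word. Among all genes with a window, 3.99% of 27305 hold one, and among the genes of replication and S phase described further on, 14 of the 22 with a window hold one. TET1, TET2, TET3, DNMT3A, DNMT3B and EED have none of these letters in their windows. The 10 enzymes have 22 windows and the 27305 genes have 35116, so more sequence per gene is searched for the enzymes. The 5 windows with an E2F word hold 30 to 46 CpG sites, against a median of 14 over all windows. Neither difference is adjusted for in the shares given here and for the other motifs.

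The other motifs were also searched on both strands. The CCAAT box, CCAAT, is in a window of 7 enzymes, namely DNMT3B, UHRF1, TET1, TET3, EZH2, SUZ12 and EED, and of 39.7% of all genes. The CHR element of late cell cycle genes, TTTGAA, is found for DNMT3A, TET2 and SUZ12 and for 18.2% of all genes. The E-box CACGTG is found for DNMT3A, TET2 and TET3 and for 8.77% of all genes. The TCF/LEF words CTTTGAT and CTTTGAA, the latter of which holds the CHR word, are found for TET2 and SUZ12 and for 8.35% of all genes. The NRF1 motif is in no window of the 10 and in those of 1.52% of all genes. A match gives only the letters and was not tested as a binding site.

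The libraries hold 7788679 to 8452258 counts in 1CT and 11158108 to 12602988 in 1CT-A, a mean ratio of 1.43, and values are therefore scaled to the library total and given as CPM, the counts a gene would have in a library of 1000000 counts. A gene with 3 counts is at 0.355 to 0.385 CPM in 1CT and at 0.238 to 0.269 CPM in 1CT-A, and these limits cover counting error only since the counts hold no molecular identifiers. APC itself is lower in 1CT-A, at a mean of 31.9 CPM against 46.6 CPM in 1CT (log2 fold change -0.58, edgeR adjusted p = 1.8e-04). Of the 13 colon epithelium markers, 2 pass the filter on low counts. KRT18 is called lower in 1CT-A, and KRT19 has 20, 27 and 34 counts in 1CT and none in 1CT-A, so that it passed through 1CT alone and its direction was set by the filter. EPCAM is listed at 0 in all 6 libraries and CDH1 has at most 4 counts, so these defining markers of the labelled epithelium are at or near 0. Of the 11 mesenchymal markers, 2 are called higher, 6 lower and 3 not called, where 25.0% of all genes tested are higher and 26.0% lower. The 11 sum to 44986 to 53075 CPM in 1CT against 22115 to 23501 CPM in 1CT-A. Most of this sum is FN1, fibronectin, at 44241 ± 3619 CPM in 1CT and 18128 ± 829 CPM in 1CT-A (SD, n = 3), and COL3A1, a fibrillar collagen, is called higher (log2 fold change 2.37). The sum of 378 olfactory receptor symbols, genes that these cells are not known to use, is 3.38 to 4.50 CPM in 1CT, and in 1CT-A it is 1.40 to 1.67 CPM. The part of this difference and of the marker levels in the values of the enzymes was not tested.

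Most of the enzymes are higher in 1CT-A. DNMT1, UHRF1, TET1, TET3, EZH2, SUZ12 and EED are called higher, DNMT3A is called lower, and DNMT3B and TET2 are not called (edgeR quasi-likelihood test, adjusted p under 0.05 over 12514 genes). All 10 pass the filter, which counts the libraries of both lines together. TET1 reaches its limit of 1.02 CPM in 2 of the 1CT libraries and in all 3 of 1CT-A, so the 1CT libraries alone would not have passed it. Without TET1, 6 of 9 are called higher. Of all genes tested, 51.0% are called, 25.0% higher and 26.0% lower, so a call is a common event in this comparison. The 7 higher calls are 7 of 10 against that 25.0%, and the single lower call is 1 of 10 against 26.0%. The CPM values of the lines do not overlap for 9 of the 10, against 59.7% of all genes tested, and for 8 of them 1CT-A is the higher, against 31.8%. The median log2 fold change of the 10 is 0.65, and that of all genes tested is -0.01. TET1 is included in these non-overlap counts and in this median. A second rule asks for a fold of 2 or more with an unadjusted p below 0.01. By it only UHRF1 and TET3 of the 9 enzymes without TET1 are left as higher, against 3.80% of all genes tested. TET1 also meets this rule, with the same limit from the filter. In a bulk sample, a change in the share of cells that use a gene and a change in the RNA per cell cannot be told apart.

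**Figure D1:**
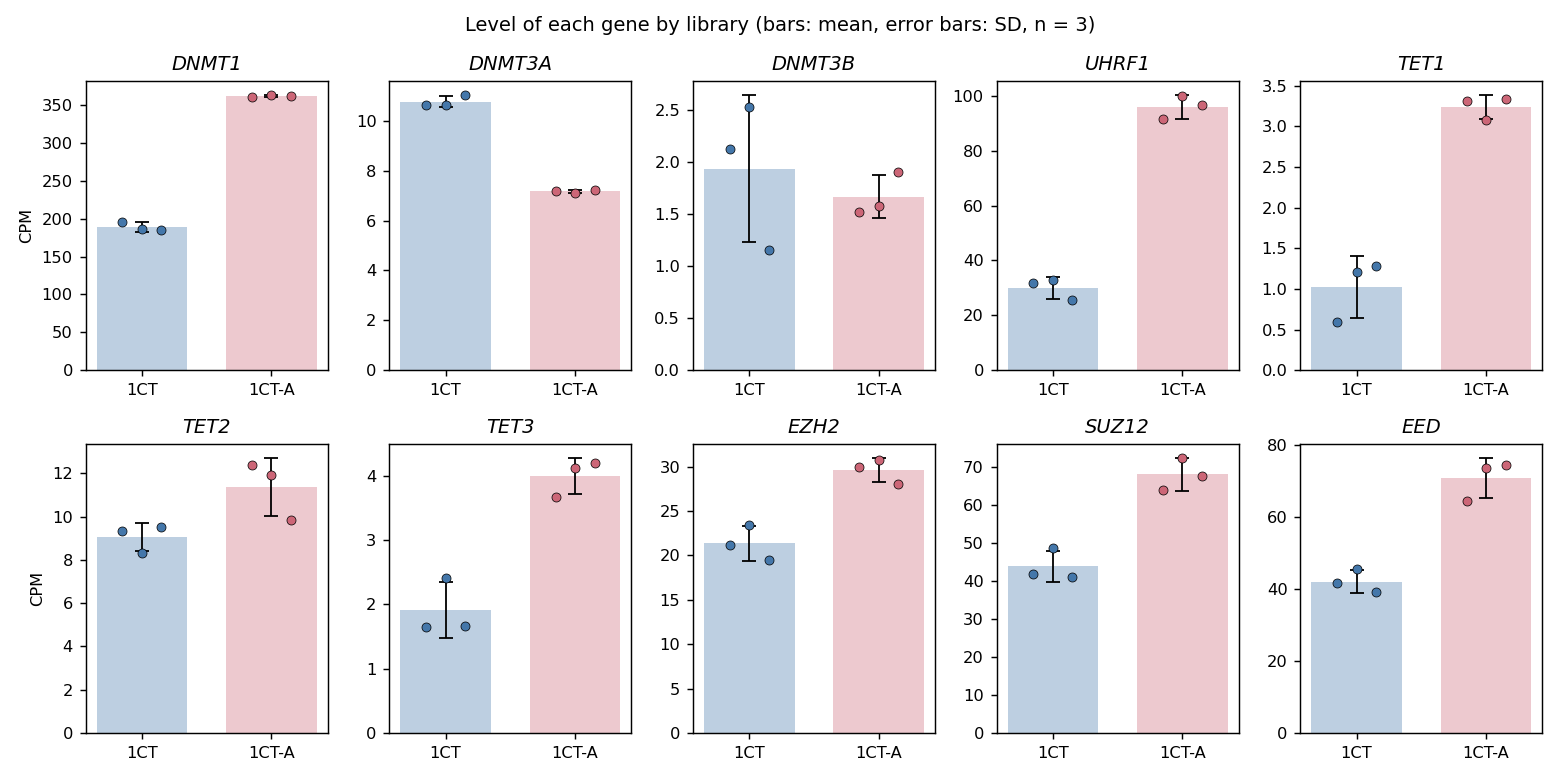
Level of each of the 10 enzymes in the 3 libraries of 1CT and the 3 libraries of 1CT-A, in CPM with an axis of its own for each gene. Points are libraries, bars are means and error bars are the SD (n = 3). The points of 1CT-A lie above all points of 1CT for 8 genes, below them for DNMT3A, and among them for DNMT3B.

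The replication genes move with this result. All 29 genes of a list of replication and S phase are called higher in 1CT-A, against 25.0% of all genes tested. PRIM1 and E2F8 among them reach the filter's limit in only 2 of the 1CT libraries. The log2 fold changes of the 29 run from 0.36 to 1.52, with a median of 0.83. Their summed level runs from 1603 to 1716 CPM in 1CT and from 3079 to 3112 CPM in 1CT-A. Since several of the enzymes are known to be made mainly in S phase, this stands beside each of the higher calls, and its part in them was not tested. UHRF1 has a larger log2 fold change than all 29 of these genes, but MCM2 at 1.52 lies inside the 95% interval of UHRF1, 1.43 to 1.84. Without 1CT replicate 3 UHRF1 is at 1.55, and MCM2 runs from 1.48 to 1.57 with 1 library left out. TET1, at the filter's limit in only 2 of the 1CT libraries, also has a larger log2 fold change than all 29. Without 1CT replicate 1 TET1 is at 1.33, below MCM2 at 1.54 in the same fit. TET3 is exceeded by 10 of them, DNMT1 by 12, EED by 21, SUZ12 by 23 and EZH2 by 27.

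Both maintenance genes are higher in 1CT-A. UHRF1 has 268, 272 and 199 counts in 1CT and 1020, 1140 and 1218 counts in 1CT-A. As CPM this is 31.7, 32.8 and 25.5 against 91.4, 100.1 and 96.6, with means of 30.0 ± 3.92 and 96.0 ± 4.35 (SD, n = 3). The lowest 1CT-A library is far above the highest 1CT library. The fitted log2 change is 1.64 (SE, the standard error, 0.10, 95% interval 1.43 to 1.84, edgeR adjusted p = 3.0e-08), a fold of 3.11, and is above that of 98.7% of the genes tested.

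DNMT1 has 1659, 1542 and 1440 counts in 1CT and 4019, 4143 and 4562 in 1CT-A. As CPM this is 196, 186 and 185 in 1CT and 360, 364 and 362 in 1CT-A, so the libraries of a line are close to each other and the lines are well apart. Fitted over all genes, DNMT1 differs by 0.90 on the log2 scale (SE 0.06, 95% interval 0.76 to 1.04, edgeR adjusted p = 1.7e-07), a fold of 1.86. S1PR2, the only neighbour in the counts whose exons overlap DNMT1 on the same strand in GENCODE, has 31 to 63 counts per library. Summed, DNMT1 and UHRF1 run from 210 to 228 CPM in 1CT and from 452 to 464 CPM in 1CT-A.

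The fitted change of UHRF1 exceeds that of DNMT1, and their 95% intervals do not overlap. There are 0.162, 0.177 and 0.138 UHRF1 counts per DNMT1 count in 1CT and 0.254, 0.275 and 0.267 in 1CT-A. The groups do not overlap, and the log2 ratio is higher by 0.75. With 3 libraries against 3, the smallest two-sided exact permutation p is 0.1, which this ratio reaches, and its adjusted value over the 9 ratios compared is 0.113. Against PCNA, the sliding clamp of replication, which recruits DNMT1 to new DNA, the pair differs in direction. The log2 ratio of UHRF1 to PCNA is -0.66 in 1CT and -0.25 in 1CT-A, whereas that of DNMT1 to PCNA is 2.00 in 1CT and 1.67 in 1CT-A (exact permutation p = 0.1 for each, the smallest possible). The 3 values of 1 line lie apart from those of the other in both ratios.

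The cofactors of DNA methylation, of maintenance and otherwise, mostly move the same way. Of 11 such genes, 10 are tested, 7 are higher, none is lower and 3 are not called, or 70.0% higher against 25.0% of all genes tested. Their median log2 fold change is 0.51, and PCNA among them is also in the replication list. CDCA7, which recruits the remodeler HELLS to chromatin, has 93, 122 and 73 counts in 1CT and 478, 571 and 630 in 1CT-A (log2 fold change 1.98, edgeR adjusted p = 1.3e-07). PCNA is at 1.22, HELLS at 0.74 and LIG1, the ligase of Okazaki fragments, at 0.59 on the same scale. MAT2A, which makes the methyl donor S-adenosylmethionine, and ZBTB24, a transcription factor mutated in some cases of the ICF syndrome, are at 0.53 and 0.48. UHRF2, the paralogue of UHRF1, is at -0.01 and is not called (95% interval -0.19 to 0.17). AHCY, which clears S-adenosylhomocysteine, is at -0.09 and is not called either (95% interval -0.25 to 0.07).

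The de novo enzymes do not follow. DNMT3A has 90, 88 and 86 counts in 1CT and 80, 81 and 91 in the deeper 1CT-A libraries. As CPM this is 10.6, 10.6 and 11.0 in 1CT and 7.17, 7.11 and 7.22 in 1CT-A, with every 1CT-A library below every 1CT library. edgeR puts the log2 change of DNMT3A at -0.63 (SE 0.14, 95% interval -0.93 to -0.32, edgeR adjusted p = 0.0025), a fold of 0.648.

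DNMT3B is counted at a low level. It has 18, 21 and 9 counts in 1CT and 17, 18 and 24 in 1CT-A, or 2.13, 2.54 and 1.16 CPM against 1.52, 1.58 and 1.90 CPM. The 1CT-A values lie within the range of 1CT. The log2 fold change of -0.26 has a 95% interval from -0.97 to 0.46 (edgeR adjusted p = 0.54), which spans both a fall and a rise that this depth cannot tell apart. DNMT3L, their cofactor without a catalytic center in germ cells, is listed at 0 in every library. The summed level of the de novo pair is 12.2 to 13.2 CPM in 1CT against 8.69 to 9.12 CPM in 1CT-A. Of all counts on the 3 DNA methyltransferases, DNMT1 takes 93.4 to 93.9% in 1CT and 97.5 to 97.7% in 1CT-A.

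**Figure D2:**
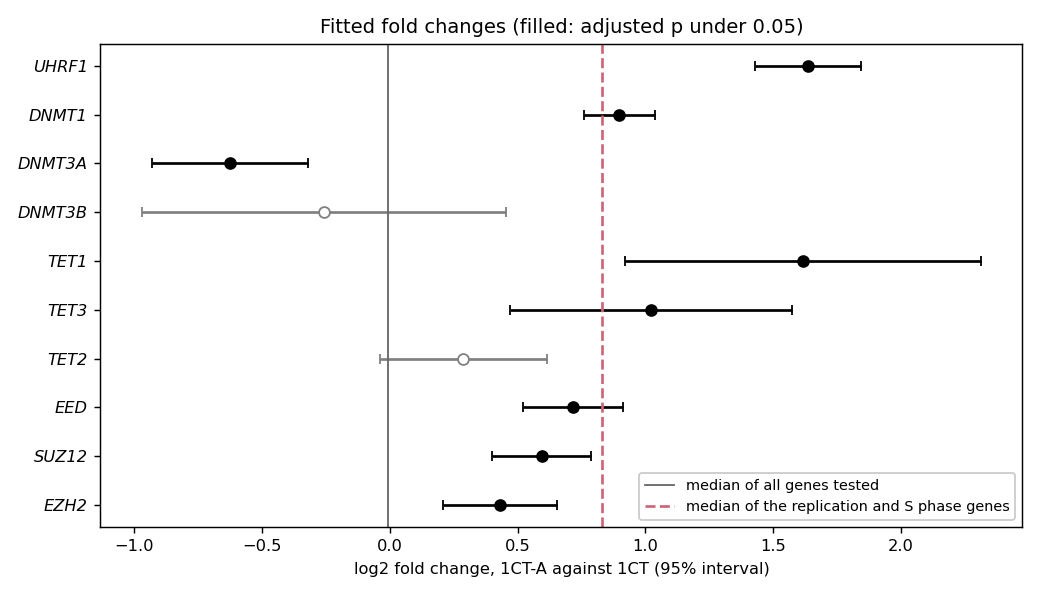
Fitted log2 fold change of each of the 10 enzymes, 1CT-A over 1CT, with the 95% interval from edgeR as a bar and a filled point where the adjusted p is under 0.05. The solid line is the median of all genes tested at -0.01, and the dashed line is that of the replication genes at 0.83. The intervals of 7 enzymes lie above 0, that of DNMT3A lies below 0, and those of DNMT3B and TET2 cross 0.

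Among the demethylating enzymes, TET1 and TET3 are higher in 1CT-A and TET2 is not called. TET1 has 5, 10 and 10 counts in 1CT and 37, 35 and 42 in 1CT-A. As CPM this is 0.592, 1.21 and 1.28 against 3.32, 3.07 and 3.33, so the lines do not overlap although the 1CT values are near the floor. The log2 difference of TET1 is 1.62 (SE 0.32, 95% interval 0.92 to 2.31, edgeR adjusted p = 0.0010). The 1CT libraries alone would not have passed TET1 through the filter, and this value is read with that limit. TET3 has 14, 20 and 13 counts in 1CT and 41, 47 and 53 in 1CT-A, or 1.66, 2.41 and 1.67 CPM against 3.67, 4.13 and 4.21 CPM. All 3 values of 1CT-A exceed those of 1CT, with a fitted difference of 1.02 on the log2 scale (SE 0.25, 95% interval 0.47 to 1.57, edgeR adjusted p = 0.0047). Among genes of such a level, 11.4% of the 1584 genes averaging 2 to 5 CPM are called higher and 30.7% lower.

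TET2 has 79, 69 and 74 counts in 1CT and 138, 136 and 124 in 1CT-A. The CPM values of 9.35, 8.33 and 9.50 in 1CT are just below those of 12.4, 11.9 and 9.84 in 1CT-A. The highest 1CT library and the lowest 1CT-A library nearly meet, and the log2 fold change of 0.29 is not called (95% interval -0.04 to 0.61, edgeR adjusted p = 0.13). Summed, the 3 TET genes reach 11.6 to 12.5 CPM in 1CT against 17.4 to 19.4 CPM in 1CT-A. Within this sum, TET1 makes up 5.10 to 10.3% of the counts in 1CT and 16.1 to 19.2% in 1CT-A, while TET2 goes from 69.7 to 80.6% down to 56.6 to 63.9%. The log2 ratio of TET3 to TET2 is higher by 0.73 in 1CT-A without overlap (exact permutation p = 0.1, adjusted 0.113), although 1CT replicate 2 at -1.76 and 1CT-A replicate 1 at -1.74 lie side by side.

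The partners of demethylation are split. Of 10 genes, 9 are tested, with 3 higher and 4 lower, or 33.3% and 44.4% against 25.0% and 26.0% of all genes tested, and a median log2 fold change of -0.03. CXXC5, a CpG binding protein of the CXXC family, has 321, 269 and 298 counts in 1CT and 96, 104 and 110 in 1CT-A (log2 fold change -2.08, edgeR adjusted p = 2.1e-08). OGT, the sugar transferase that binds TET proteins, is lower at -0.42. APEX1, the endonuclease of base excision repair, is higher at 1.01, and IDH1, which makes the TET cosubstrate 2-oxoglutarate, is higher at 0.70. TDG, the glycosylase that removes the oxidized bases, is higher at 0.34.

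Genes of the families that read methylated CpG have small fold changes. Of 8 genes, 4 are higher, 1 is lower and 3 are not called, where 25.0% of all genes tested are higher and 26.0% lower, with a median log2 fold change of 0.20. ZBTB38 at 0.47, MBD3 at 0.37 and MBD4, a glycosylase for mismatches at CpG, at 0.25 are called higher, and ZBTB4 at -0.30 is called lower. Only ZBTB38 of these is called in every fit with 1 library left out. MBD3 is lost without 1CT-A replicate 3 (edgeR adjusted p = 0.061), ZBTB4 without 1CT-A replicate 1 (edgeR adjusted p = 0.054), and MBD4 without 1CT replicate 2 or 1CT-A replicate 1.

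The 3 core genes of PRC2 are all called higher. EED, which binds H3K27me3 and stimulates the enzyme, has 351, 377 and 304 counts in 1CT and 719, 840 and 940 in 1CT-A. As CPM this is 41.5, 45.5 and 39.0 against 64.4, 73.7 and 74.6, without overlap. On the log2 scale EED differs by 0.72 (SE 0.09, 95% interval 0.52 to 0.91, edgeR adjusted p = 2.5e-05).

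SUZ12, the subunit that holds the complex together, has 355, 403 and 321 counts in 1CT and 714, 827 and 855 in 1CT-A. Its values of 42.0, 48.7 and 41.2 CPM in 1CT all lie below the 64.0, 72.6 and 67.8 CPM of 1CT-A. The fitted log2 difference of SUZ12 is 0.59 (SE 0.09, 95% interval 0.40 to 0.79, edgeR adjusted p = 1.2e-04). The pseudogene SUZ12P1, whose reads may not be separable from SUZ12, has 63 to 75 counts in 1CT and 96 to 127 in 1CT-A, and with both added the log2 fold change is 0.52 (edgeR adjusted p = 2.5e-04).

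EZH2 has 179, 194 and 152 counts in 1CT and 335, 351 and 354 in 1CT-A. As CPM this is 21.2, 23.4 and 19.5 in 1CT and 30.0, 30.8 and 28.1 in 1CT-A, so the catalytic subunit is also higher in each 1CT-A library. The log2 fold change of 0.43 (SE 0.10, 95% interval 0.21 to 0.65, edgeR adjusted p = 0.0035) is a fold of 1.35. Summed, the core runs from 99.8 to 118 CPM in 1CT and from 158 to 177 CPM in 1CT-A.

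Within the core the proportions are close in both lines. SUZ12 takes 40.1 to 41.4% of the counts of the 3 genes in 1CT and 39.8 to 41.0% in 1CT-A. EZH2 goes from 19.6 to 20.2% in 1CT to 16.5 to 18.9% in 1CT-A, and EED from 38.7 to 39.7% to 40.7 to 43.7%. The log2 ratio of EZH2 to SUZ12 is lower by a difference of -0.16 and that of EED to SUZ12 is higher by 0.12, and neither overlaps between the lines (exact permutation p = 0.1 for each, adjusted 0.113). Against PCNA, EZH2 has a log2 ratio of -1.15 in 1CT and -1.94 in 1CT-A, a difference of -0.80 without overlap.

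**Figure D3:**
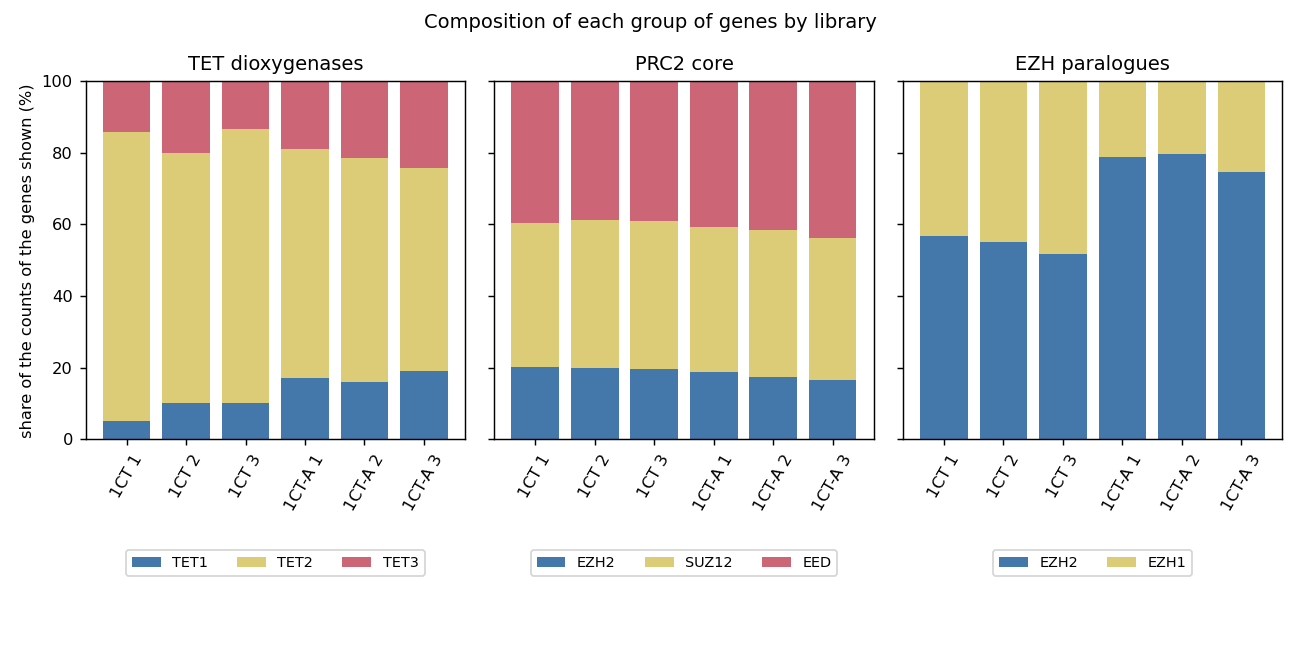
Share of each gene in the counts of its group by library, for the TET genes, the PRC2 core and the 2 EZH paralogues, in percent. TET1 takes 16.1 to 19.2% of the TET counts in 1CT-A against 5.10 to 10.3% in 1CT, and EZH2 takes 74.7 to 79.6% of the EZH counts in 1CT-A against 51.7 to 56.8% in 1CT, while the PRC2 core is nearly level.

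The catalytic paralogues EZH2 and EZH1 are called in opposite directions. EZH1, the subunit of PRC2 that prevails in resting cells, has 136, 159 and 142 counts in 1CT and 90, 90 and 120 in 1CT-A, and differs by -1.10 on the log2 scale (SE 0.14, edgeR adjusted p = 2.5e-05). There are 1.32, 1.22 and 1.07 EZH2 counts per EZH1 count in 1CT and 3.71, 3.88 and 2.94 in 1CT-A. The lowest value of 1CT-A is far above the highest of 1CT. The log2 ratio goes from 0.26 ± 0.15 to 1.80 ± 0.21 (SD, n = 3), a difference of 1.54 (exact permutation p = 0.1, adjusted 0.113). This is the largest difference of the 9 ratios. EZH2 makes up 51.7 to 56.8% of the counts of the pair in 1CT and 74.7 to 79.6% in 1CT-A.

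**Figure D4:**
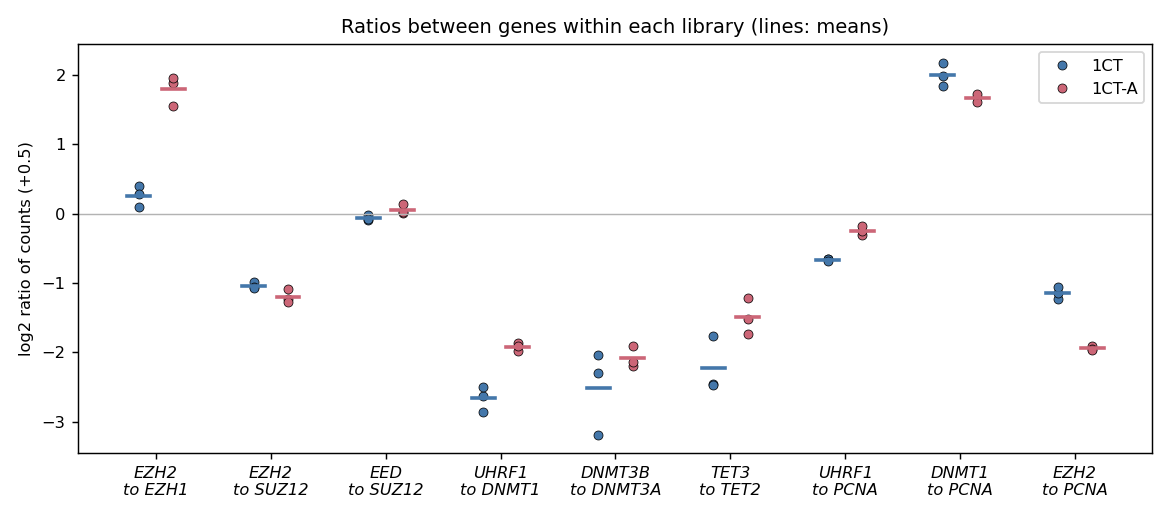
log2 ratio of the counts of the genes named, in each of the 3 libraries of 1CT and the 3 of 1CT-A, with 0.5 added to each count, points for libraries and lines for means. The ratio of EZH2 to EZH1 is apart by 1.54, UHRF1 to DNMT1 by 0.75, and DNMT3B to DNMT3A overlaps between the lines.

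The other subunits that bind the core do not move together. Of 11 accessory genes 10 are tested, with 3 higher, 2 lower and 5 not called, or 30.0% and 20.0% against 25.0% and 26.0% of all genes tested, which is near the background, and a median log2 fold change of -0.11. PHF19, a Polycomb-like protein that brings PRC2 to CpG islands, is higher at 0.61, the histone binding subunit RBBP7 at 0.43, and the zinc finger subunit AEBP2 at 0.69. EZH1 and EPOP, a cofactor of the variant PRC2.1 listed under its older symbol C17orf96, are called lower at -1.10 and -0.48. EPOP is no longer called without 1CT replicate 2 or 1CT-A replicate 1. RBBP4 at -0.06, JARID2 at -0.20, MTF2 at 0.20, PHF1 at -0.17 and LCOR at -0.31 are not called. EZHIP, an inhibitor of EZH2 that is normally used in germ cells and is listed as CXorf67, is at 0 in every library.

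The PRC1 complex, which binds H3K27me3 through its CBX subunits and ubiquitinates histone H2A, has more genes called higher than lower. Of 22 genes all are tested, with 10 higher, 1 lower and 11 not called, or 45.5% higher and 4.55% lower against the same 25.0% and 26.0%, and a median log2 fold change of 0.23. The lower one is CBX7, with 154, 149 and 163 counts in 1CT and 106, 100 and 125 in 1CT-A, and a log2 fold change of -1.05 (edgeR adjusted p = 2.3e-05). SCMH1 at 0.56, KDM2B, which tethers a variant of PRC1 to CpG islands, at 0.54 and BMI1 at 0.53 are called higher, KDM2B not without 1CT replicate 2 or 1CT-A replicate 2. The paralogues CBX2 and CBX8 are named after their values were seen. CBX2 has 17, 15 and 20 counts in 1CT and 103, 90 and 117 in 1CT-A (log2 fold change 2.01, edgeR adjusted p = 5.9e-06), and CBX8 is at 0.85 (edgeR adjusted p = 0.0059). The CBX paralogues thus differ in direction, with CBX7 lower and CBX2 and CBX8 higher.

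The calls among genes that oppose Polycomb are near the background. Of 13 genes 12 are tested, with 3 higher, 2 lower and 7 not called, or 25.0% higher and 16.7% lower against 25.0% and 26.0% of all genes tested, and a median log2 fold change of 0.03. NSD2, which puts the opposing mark H3K36me2 on chromatin and is listed as WHSC1, is higher at 0.81, and the SWI/SNF subunit SMARCB1 is higher at 0.45. NSD1, which makes the same mark, is lower at -0.52 and KMT2A, a trithorax methyltransferase, is lower at -0.43. The H3K27 demethylases are near 0, with KDM6A at -0.01 (95% interval -0.56 to 0.54) and KDM6B at 0.17 (95% interval -0.34 to 0.67), and these intervals leave room for a change of moderate size either way.

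**Figure D5:**
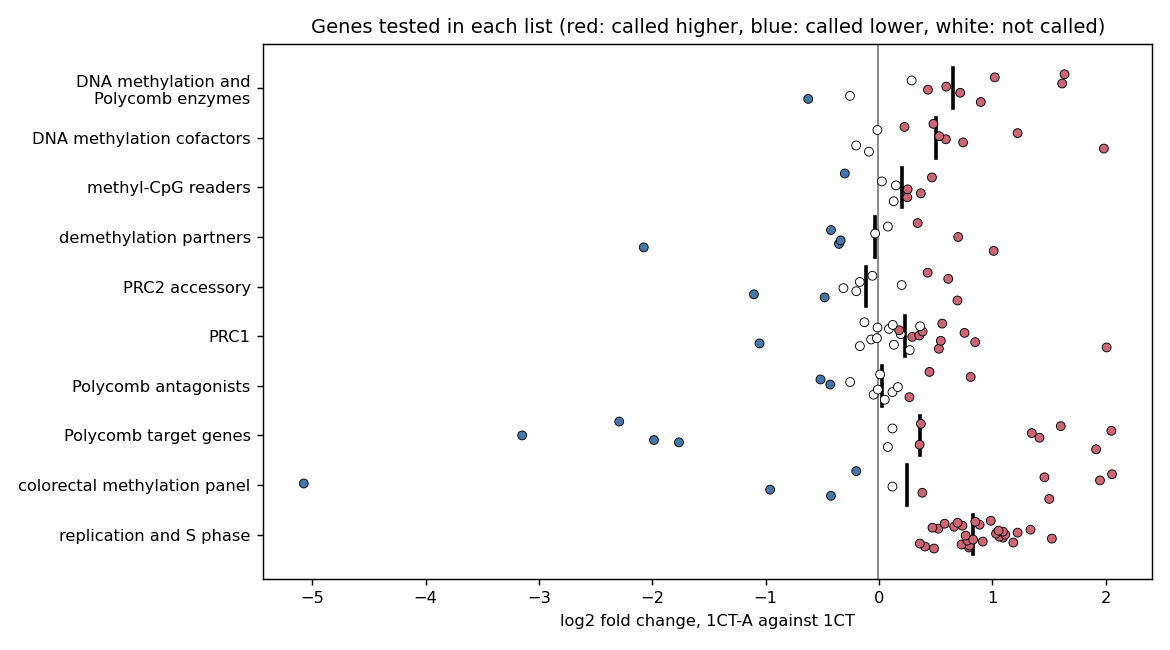
Fitted log2 fold change, 1CT-A over 1CT, of each gene tested in the 10 enzymes and in 9 other lists, 1 point per gene, with the median of a list as a black line. All 29 replication genes lie above 0, while the medians of the PRC2 accessory genes at -0.11, the demethylation partners at -0.03 and the Polycomb antagonists at 0.03 lie near 0.

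Known targets of Polycomb in other cells do not share a direction. Of 30 such genes, mostly transcription factors of development, 14 have at most 3 counts in every library and 13 are tested, with 7 higher, 4 lower and a median log2 fold change of 0.36. GATA6 and WT1 passed the filter through 1CT alone, so their directions were set by the filter, and no share over the list is given. IRX3 reaches the filter's limit in only 2 of the 1CT libraries. Of all genes tested, 25.0% are called higher and 26.0% lower. CCND2, a D-type cyclin, is higher at 1.92, with 416, 500 and 400 counts in 1CT and 2406, 2393 and 2493 in 1CT-A. TBX2, FOXF1 and HAND2, factors of the mesenchyme, are higher at 1.60, 1.42 and 1.35. The 4 lower genes are GATA6 at -3.15, WT1 at -2.29, FOXC2 at -1.99 and FOXC1 at -1.77, which are below the level set for naming and were named after their values were seen. CDKN2A, a classical Polycomb target whose products stop the cell cycle, has 1213 to 1510 counts in 1CT and 2011 to 2432 in 1CT-A and is not called (log2 fold change 0.08, 95% interval -0.08 to 0.24).

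Germline genes, which DNA methylation keeps silent in somatic cells, are nearly all at or near 0 counts. Of 24 genes, 19 have at most 3 counts in every library and 2 are tested. SYCP3 is called lower at -0.46 (edgeR adjusted p = 0.048), a call that 8 of 13 other settings do not make, and STAG3 is not called. The 24 genes sum to 9.63 to 11.8 CPM in 1CT against 7.53 to 8.89 CPM in 1CT-A.

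The 15 genes whose promoters are used as methylation markers in colorectal cancer go both ways. Of these, 10 are tested, with 5 higher, 4 lower, 1 not called and a median log2 fold change of 0.25. Calls are common over all genes tested, with 25.0% higher and 26.0% lower. SOCS1, 1 of the 5 higher, reaches the filter's limit in only 2 of the 1CT libraries, which alone would not have passed it. SFRP1, a secreted Wnt antagonist, has 689, 637 and 590 counts in 1CT and 33, 28 and 22 in 1CT-A, the widest gap of the list (log2 fold change -5.08, edgeR adjusted p = 9.3e-11). NDRG4 is lower at -0.96. TFPI2, a protease inhibitor, is higher at 1.46, with 336, 299 and 209 counts in 1CT and 1005, 1152 and 1252 in 1CT-A. IGF2, an imprinted growth factor, has 126, 570 and 183 counts in 1CT and 1105, 1357 and 1184 in 1CT-A, and its log2 fold change of 1.50 is 2.40 without 1CT replicate 2. DNA methylation itself was not measured in these libraries, so no level of methylation stands behind these values.

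The profiles most like those of UHRF1, DNMT3A and TET1 were sought as a description over the 6 libraries, by the Euclidean distance between centred log2(CPM + 0.5) values among the 8224 genes that average 10 CPM or more. For UHRF1 the nearest genes are ARNTL2 at a distance of 0.143, PACSIN3 at 0.190 and the helicase subunit MCM2 at 0.207. For DNMT3A they are CD59 at 0.0367, EVA1B at 0.0733 and RTN4 at 0.0740. TET1, whose few counts scatter more, has no gene as near, with BDKRB2 and MND1 at 0.319 and AURKB at 0.352. With 3 libraries per line, this likeness reflects mainly the difference between the lines.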

How the data were processed

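Each library has 1 deposited file of raw read counts by gene symbol, which the authors neither normalized nor pooled. Per the labels, RNA was taken with Trizol and made into LEXOGEN QuantSeq 3′ libraries, whereas the paper's methods name an RNA-spin kit and a cDNA microarray. The submitters' processing notes name Bowtie2, edgeR and the build hg19. The counting tool, the annotation and the use of strand are not given in the sources used here. Shares and ratios between genes are of raw counts, which need not follow the number of transcripts, and are compared only between the lines.

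The 25737 entries were summed to 24462 symbols, 286 of which are entered repeatedly. The 3 libraries of 1CT-A were compared with the 3 of 1CT on the deposited counts with edgeR 4.0.16 (TMM normalization, filterByExpr with a minimum count of 10, glmQLFit, glmQLFTest, Benjamini-Hochberg adjustment over 12514 genes, threshold 0.05). The test was checked on simulated data. The 9 ratios of counts, with 0.5 added, were compared by two-sided exact permutation tests. Libraries of a line differ by more than counting noise (chi-square per degree of freedom 3.11 to 9.00), so none is a repeat of the same counts and each was entered on its own. Alternatives were DESeq2 1.42.0, limma-voom 3.58.1, scaling by library size, dropping the filter, asking for 10 counts or more in each library, a replicate block, stricter thresholds and each library left out. The sum of SUZ12 and SUZ12P1 was added after the data were seen.

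The members and the gene lists were chosen with earlier results of these data known. The genes named are all 10 enzymes, the PRC2 accessory genes, the genes of the ratios, and from each other list up to 4 called genes that average 10 CPM or more and have the largest change. Further genes are named as a part of the list's account or after their values were seen. Promoter windows are from RefSeq on GRCh38.p14 and overlaps from GENCODE 44. The genes with a profile most like that of EED are not reported here.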

Additional observations from a re-analysis of the deposited data

How the results depend on the processing

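All 129 fits of a single enzyme under the alternatives, including those with 1 library left out, gave the direction and the side of the threshold reported, and so did the direction of the 9 ratios in 72 fits or recalculations. When a fold of 2 or more is also asked for, with an unadjusted p below 0.01, 1676 genes are called, 3 of the enzymes are higher (UHRF1, TET1 and TET3) and 0 are lower. TET1 among them would not have passed the filter through the 1CT libraries alone. With 1 library left out, 5364 to 6551 genes are called instead of 6388, and the enzymes stay at 7 higher and 1 lower. The widest ranges among the enzymes with 1 library left out are those of DNMT3B, from -0.50 to -0.02 (edgeR adjusted p 0.24 to 0.97), and of TET1, from 1.33 to 1.82. A filter of at least 10 counts in every library gives no value for these same genes. With scaling by library size alone, 3441 genes are higher and 3014 lower, or 53.3% higher among those called against 49.0% with TMM. The replicate block calls 6091 genes, 7 enzymes higher and 1 lower. The deviations of same-numbered libraries from the means of their lines correlate at -0.16, 0.22 and -0.14, and those of differently numbered ones at -0.29 to 0.35. Deviations within a line are tied to each other, so these values cannot decide whether same-numbered libraries share more than a number. Values near 0 change sign. UHRF2 is at 0.023 with library size and 0.0317 without a filter, and between -0.051 and 0.035 with 1 library left out. KDM6A is at 0.026 with library size, 0.035 without a filter, 0.034 with limma-voom, 0.018 with the replicate block, and between -0.24 and 0.19 with 1 library left out. KDM6B runs from -0.0038 to 0.44 with 1 library left out. The depth limits TET1, TET3 and DNMT3B, whose 1CT counts are 5 to 21 per library.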
